A study of Apis mellifera with 27 samples.

Results

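Long non-coding RNA (lncRNA) genes that lie clear of protein-coding genes were examined for 4 histone modifications in the brains of newly-eclosed honey bees, *Apis mellifera*. The members were all genes of lncRNA biotype on chromosomes 1 to 16 of the Amel_HAv3.1 RefSeq gene table whose span overlaps no protein-coding gene span, and 664 of the 1830 lncRNA genes on those chromosomes met this rule, out of 12255 genes of all kinds. The other 1166 lncRNA genes overlap a protein-coding gene and were set aside. Each gene span was extended by 500 bp on both sides, and a region was scored as marked in a library when at least 1 deposited peak overlapped it. The choice of members used position and biotype alone and no peak value.

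A lncRNA is a transcript made by RNA polymerase that carries no long open reading frame, and some act on chromatin or hold the hairpins of microRNAs. In animal genomes H3K4me3 marks active promoters, H3K4me1 is typical of enhancers and gene bodies near promoters, and H3K27ac is found on active promoters and enhancers. H3K27me3 is laid down by Polycomb repressive complex 2 and is associated with silent chromatin, such as that over Hox genes in tissues where they are not used.

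The libraries were ChIP-seq of central brains (optic lobes removed, and in workers also the hypopharyngeal glands) from drones, which are haploid males, and from queens and workers, which are both diploid females, all offspring of 1 mother queen. Each of the 3 castes had 2 libraries for each of the 4 marks, so 6 libraries per mark and 24 in all, and every library was made from a pool of brains. All bees were sampled at adult emergence without further treatment. Input samples, 1 per caste, had no peak file and were not analysed here. Nothing further separates the 2 pools of a caste, so the p-values below measure the spread between these libraries only, and the 6 libraries of a mark share the same genes.

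Between 3866 and 26256 peaks were deposited per library, and the ChIP depth recovered from the peak statistics ran from 4.20 to 25.1 M tags. By this estimate drone libraries had the fewest tags in all 4 marks. For that reason shares were also taken with an equal number of top peaks per library within a mark. The mapped reads reported in the paper are higher for every library. In those numbers a drone library is the lowest in none of the 4 marks. Why the estimate and the mapped reads differ was not tested. All 3 neuronal genes with a matching symbol (Syt1, Syx1A and brp) carried H3K4me3 and H3K27ac in all 6 libraries, against 1 of 19 genes for royal jelly proteins, vitellogenin, opsins and muscle troponin C, namely TpnCI.

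The lncRNA genes ranged from 192 to 314713 bp in length, with a median of 3137.5 bp, against a median of 4005 bp for the 9870 protein-coding genes. Their median distance to the nearest protein-coding gene was 3127 bp. There were 200 members under 1 kb from a protein-coding gene and 201 at 10 kb or more, the farthest at 165740 bp. Members were not all separate loci, since 73 overlap another member and the 664 regions merge into 579. Because a longer region holds a peak more often, the protein-coding share was standardised to the lncRNA lengths over 6 length classes where the text says so, and other protein-coding percentages are over all 9870 regions as they are.

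H3K27me3 was the mark in which lncRNA regions stood farthest above protein-coding genes. On average 34.7% ± 3.34 of lncRNA regions held an H3K27me3 peak, against 9.64% ± 1.18 of length-standardised protein-coding regions (SD, n = 6 libraries), a ratio of 3.60. In drones the lncRNA shares were 31.02% and 30.7%, in queens 35.7% and 35.1%, and in workers 36.3% and 39.5%. The lncRNA share was the higher one in 6 of 6 libraries, by 22.4 to 28.2 percentage points. The mean difference was 25.1 ± 2.17 points (exact two-sided sign-flip permutation test over libraries, adjusted over 4 marks, p = 0.03125, which is the smallest p that 6 libraries allow).

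H3K4me1 was also more frequent at lncRNA genes. Its mean share was 40.8% ± 5.43 of lncRNA regions, against 24.2% ± 2.85 of length-standardised protein-coding regions (SD, n = 6). Single libraries gave 39.8% and 43.2% in drones, 46.8% and 45.5% in queens, and 32.7% and 36.7% in workers. The mean difference of 16.6 ± 3.07 points had the same sign in 6 of 6 libraries and the same exact permutation p of 0.03125. With peaks above 3-fold enrichment alone the difference was 1.60 points (exact permutation p = 0.0625).

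The 2 marks of active promoters were less frequent at lncRNA genes. H3K4me3 peaks were found in 20.4% ± 6.26 of lncRNA regions, against 35.8% ± 5.20 of length-standardised protein-coding regions (SD, n = 6), a difference of −15.4 ± 2.36 points. The lncRNA shares for this mark were 15.5% and 10.7% in drones, 24.2% and 26.7% in queens, and 25.3% and 20.03% in workers. H3K27ac differed least, with 40.5% ± 2.38 of lncRNA regions against 45.2% ± 2.34 of protein-coding regions, a difference of −4.75 ± 2.38 points. For H3K27ac the lncRNA shares were 39.6% and 39.5% in drones, 44.6% and 41.9% in queens, and 37.95% and 39.3% in workers. Both differences were negative in 6 of 6 libraries (exact sign-flip permutation p = 0.03125 each), and the one in H3K27ac was −3.67 points without the 500 bp flanks (p = 0.0625, same exact test).

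**Figure D1:**
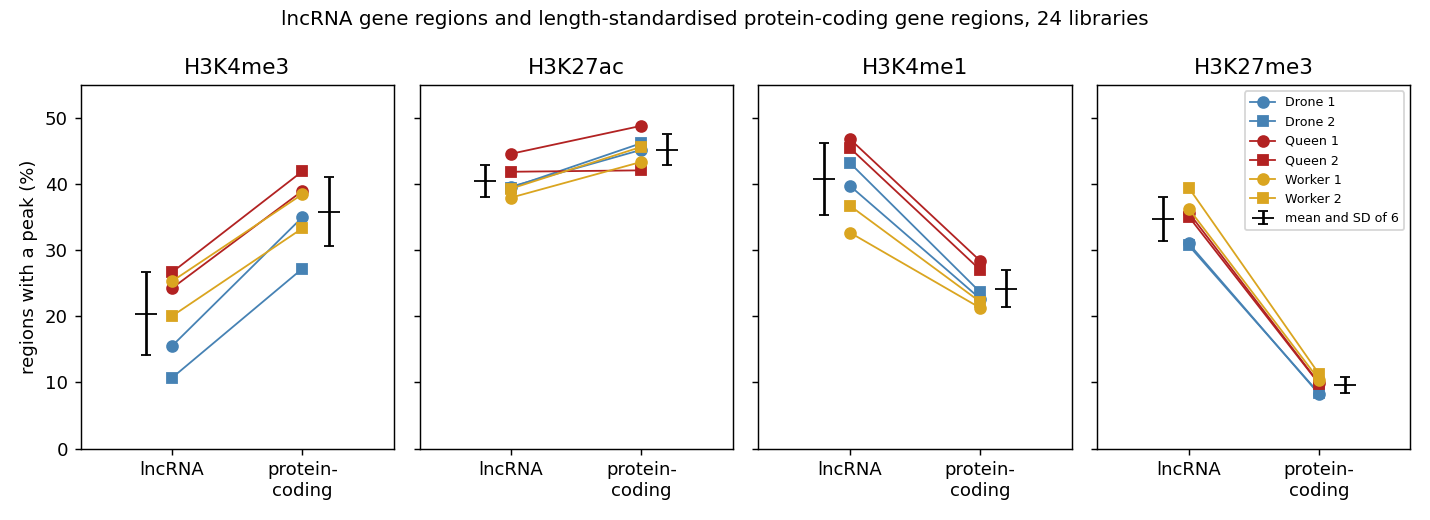
Share of regions with a peak (%, y axis) at lncRNA genes (left) and at length-standardised protein-coding genes (right) in each library, with a line per library coloured by caste and black bars for the mean and SD of 6 libraries. In the H3K27me3 panel the lncRNA values lie between 30.7% and 39.5% and the protein-coding values between 8.22% and 11.3%, while in the H3K4me3 panel every line climbs to the right.

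Marked regions also differed in the height of their peaks. The strongest fold enrichment of H3K27me3 in a marked lncRNA region had a median of 3.63 ± 0.26, against 3.14 ± 0.10 in marked protein-coding regions (mean of the library medians ± SD, n = 6). The order was the other way for H3K4me3 (4.55 ± 1.48 against 7.28 ± 1.95), H3K27ac (5.09 ± 0.70 against 7.60 ± 0.74) and H3K4me1 (2.64 ± 0.12 against 3.09 ± 0.08). These fold values were not standardised for length and were not tested. The level of the folds differed between libraries as a whole. For H3K27ac the median in marked lncRNA regions was 5.70 and 5.70 in drones, 5.13 and 5.52 in queens, and 4.10 and 4.37 in workers, and for H3K27me3 it was 3.70 and 4.02 in drones, 3.69 and 3.60 in queens, and 3.55 and 3.23 in workers. For H3K4me3 it was 6.57 and 6.29 in drones, 4.04 and 3.50 in queens, and 3.24 and 3.66 in workers. The part of these library-wide levels in the caste order of folds at any single region was not tested.

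The contrast with protein-coding genes depended on length. Among the 196 lncRNA genes below 2 kb, H3K27me3 was found at 15.4% on average, against 3.83% of the 2153 protein-coding genes of that length. From 10 to 20 kb the shares were 57.7% of 50 lncRNA genes and 16.2% of 984 protein-coding genes. At 50 kb and over they were 69.8% of 21 lncRNA genes and 60.5% of 729 protein-coding genes, where the ranges over libraries overlapped (61.9% to 85.7% and 55.8% to 64.7%). H3K27ac changed sides along this axis. Below 2 kb the lncRNA share was 33.5%, against 28.1% for protein-coding genes, and at 50 kb and over it was 52.4%, against 88.7%. For H3K4me1 the order turned at the long end. From 2 to 5 kb the lncRNA share was 39.9%, against 14.6% for protein-coding genes, and at 50 kb and over it was 73.8%, against 95.6%.

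**Figure D2:**
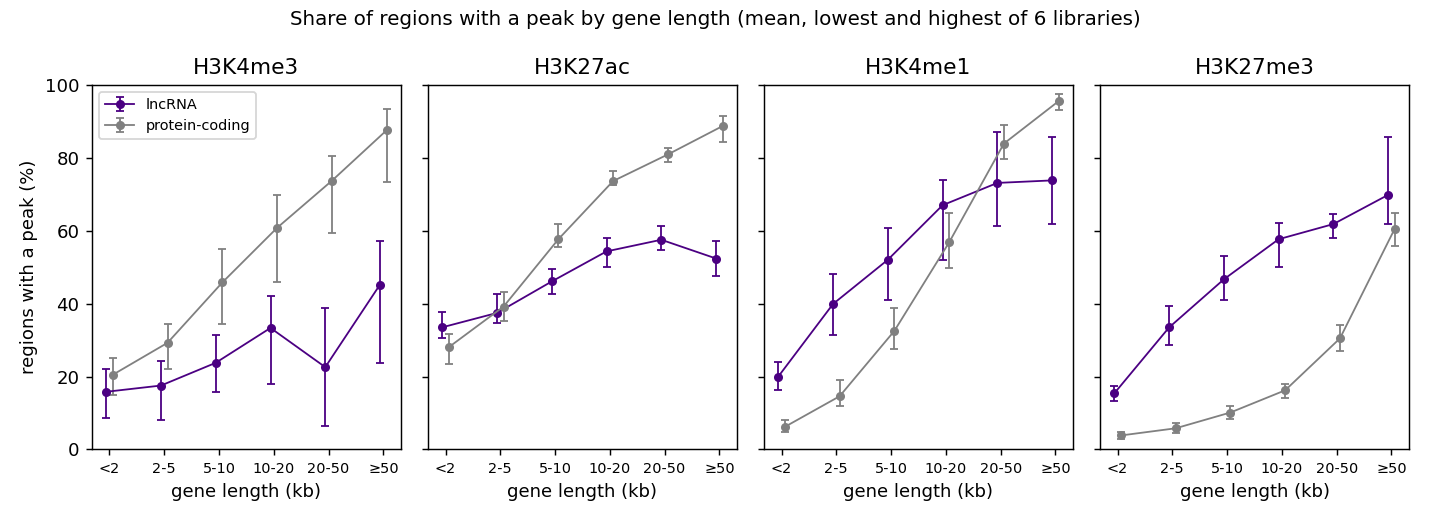
Share of regions with a peak (%, y axis) in 6 classes of gene length (kb, x axis) for lncRNA genes (purple) and protein-coding genes (grey), where points are means and bars run from the lowest to the highest of 6 libraries. For H3K27me3 the purple points lie above the grey ones in all 6 classes, with overlapping bars at 50 kb and over, whereas for H3K27ac the purple points are above below 2 kb and below from 2 kb on.

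Comparison with the DNA outside genes addressed how far the marks of lncRNA genes differ from intergenic DNA as a whole. The lncRNA regions covered 6.16 Mb and the sequence in no gene or flank 44.99 Mb. H3K4me3 peaks covered 1.12% of lncRNA bases and 0.541% of intergenic bases, and H3K27ac peaks 5.65% of lncRNA bases and 3.09% of intergenic bases, ratios of 2.07 and 1.83. H3K4me1 covered 3.02% of lncRNA bases and 2.29% of intergenic bases, a ratio of 1.32. H3K27me3 coverage was nearly the same in both, at 11.6% ± 0.28 of lncRNA bases and 11.3% ± 0.47 of intergenic bases (SD, n = 6), whereas 4.40% ± 0.22 of the bases of protein-coding regions were covered. Against windows of 5000 bp outside the gene spans, the order turned for H3K4me3, H3K27ac and H3K4me1. H3K4me3 covered 0.743% inside and 1.69% outside, H3K27ac 5.11% and 6.31%, and H3K4me1 3.05% and 3.72%. H3K27me3 covered 12.7% inside and 10.3% outside. Each of these local differences had 1 sign in all 6 libraries and was not tested. The windows are not the same as the intergenic DNA above. With a median distance of 3127 bp to a protein-coding gene, they can reach neighbouring genes and their promoters.

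All 4 coverage differences from intergenic DNA were positive in 6 of 6 libraries (exact sign-flip permutation p = 0.03125 each), but those of H3K27me3 and H3K4me3 depended on the setting. The H3K27me3 difference was 0.340 points, became 2.05 points without the flanks and was −0.100 points with peaks above 3-fold (exact permutation p = 0.5625). The H3K4me3 difference was 0.576 points and 0.193 points without the flanks (exact permutation p = 0.0625).

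For genes of at least 3 kb, H3K4me3 coverage was higher around the ends of lncRNA genes than in their bodies. The 500 bp on either side of a gene end were covered to 2.87% ± 0.85 and the body to 0.602% ± 0.29 in the 346 lncRNA genes of that length, and in protein-coding genes to 7.77% at the ends and 1.61% in the body. H3K27ac had 8.63% at the ends of lncRNA genes and 4.56% in their bodies. H3K27me3 went the other way, with 10.5% ± 0.77 at the ends and 12.7% ± 0.31 in the bodies of lncRNA genes. The gene table used gives no strand, so the 5′ end could not be told from the 3′ end. The end windows reach outside the gene, and members near protein-coding genes were kept. Signal from neighbouring promoters was therefore not separated from that of the lncRNA ends.

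Distance from a protein-coding gene divided the marks into opposite patterns. H3K27ac was found at 55.6% of the 200 lncRNA regions under 1 kb from a protein-coding gene and at 17.5% of those at 10 kb or more, after standardising the far regions to the lengths of the near ones, a difference of 38.1 ± 1.39 points. H3K4me3 followed with 35.2% near and 8.32% far, a difference of 26.8 ± 5.21 points. H3K27me3 was lower near protein-coding genes, with 20.7% near and 41.9% far, a difference of −21.2 ± 1.30 points. The difference for H3K4me1 was small, at 36.3% near and 32.03% far, or 4.30 ± 1.501 points, and it depended on the lengths. Without standardisation 40.05% of the far regions held an H3K4me1 peak and near minus far was −3.72 points, negative in 6 of 6 libraries (exact permutation p = 0.03125), an alternative chosen after seeing the data that left the sign of the other 3 marks as it was. Each standardised difference had 1 sign in 6 of 6 libraries (exact permutation p = 0.03125). The H3K27me3 share peaked at 54.3% ± 5.23 in the class from 10 to 30 kb and was 39.8% ± 2.59 at 30 kb and over.

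**Figure D3:**
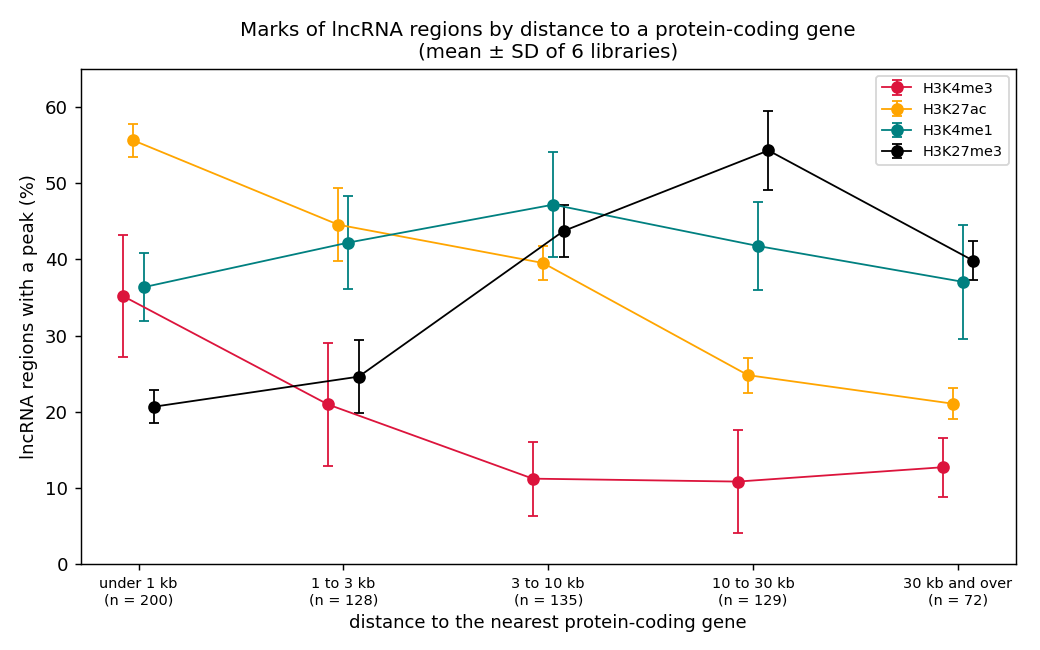
Share of lncRNA regions with a peak (%, y axis, mean ± SD of 6 libraries) in 5 classes of distance to the nearest protein-coding gene (x axis, n members in brackets), with a line per mark. H3K27ac falls to 21.1% in the farthest class, H3K4me3 lies between 10.9% and 12.7% in the 3 classes from 3 kb on, and H3K27me3 climbs to 54.3% at 10 to 30 kb and is 39.8% beyond.

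Part of the promoter signal near protein-coding genes lay in the flanks. Of the 63 lncRNA regions with H3K4me3 in all 6 libraries, 41 (65.1%) were under 1 kb from a protein-coding gene and 5 were at 10 kb or more. With the gene span alone, 28 regions had H3K4me3 in all 6 libraries. For H3K27me3 the corresponding counts were 174 with the flanks and 167 without. Leaving out the members near protein-coding genes widened the difference from protein-coding regions to −23.5 points for H3K4me3 and to −13.1 points for H3K27ac.

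Among the 464 members at least 1 kb from a protein-coding gene, the nearest protein-coding gene carried H3K27me3 in 59.7% of cases where the lncRNA region did, and in 19.6% where it did not (means over 6 libraries, with ranges of 56.5% to 64.1% and 17.2% to 24.4%). For H3K27ac these shares were 74.0% and 43.5%. They were 49.2% and 48.3% for H3K4me3, and 58.0% and 55.7% for H3K4me1, with overlapping ranges. Neighbours were not standardised for length.

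Counted over libraries, 174 lncRNA regions (26.2%) carried H3K27me3 in all 6, where 8.38% of protein-coding regions did. In no library was it called at 355 lncRNA regions (53.5%), against 81.3% of protein-coding regions. H3K27ac was present in all 6 libraries at 208 lncRNA regions (31.3%), against 41.3% of protein-coding regions, and in none at 329 (49.5%), against 39.8%. H3K4me3 was in all 6 at 63 (9.49%), against 29.7%, and in none at 425 (64.0%), against 47.1%. H3K4me1 was in all 6 at 110 (16.6%), against 18.4%, and in none at 225 (33.9%), against 56.1%. These protein-coding percentages are not standardised for length. With standardisation 12.5% of protein-coding regions had H3K4me1 in all 6 libraries, so that the order turned for this count, whereas for H3K27ac (36.3%), H3K27me3 (5.82%) and H3K4me3 (25.5%) it did not. A region without a call is not shown to lack the mark.

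Marks found in all 6 libraries were set side by side. Of the 63 regions with H3K4me3 in all 6 libraries, 59 also had H3K27ac in all 6 and none lacked it in all 6. Of the same 63 regions, 6 had H3K27me3 in all 6 libraries and 46 (73.0%) in none, against 53.5% of all members without it. Of the 174 regions with constant H3K27me3, 118 (67.8%) had no H3K4me3 peak in any library, close to the 64.0% of all members, and 109 (62.6%) no H3K27ac peak, against 49.5% of all members. H3K27me3 and H3K27ac were both constant at 26 regions, which are 14.9% of the 174 with constant H3K27me3 and 12.5% of the 208 with constant H3K27ac. H3K4me1 occurred with both. No H3K4me1 peak in any library was found at 7 (4.02%) of the 174 regions with constant H3K27me3 and 42 (20.2%) of the 208 with constant H3K27ac. Among all members this share was 33.9%. Regions with constant H3K27me3 were longer, with a median of 5314.5 bp against 3654 bp for constant H3K27ac. Lengths were not matched here, and a longer region holds a peak more often.

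When a mark was counted as present in a caste if both libraries held a peak, H3K27me3 without any other mark was found at 76 lncRNA regions in drones (11.4%), 68 in queens (10.2%) and 111 in workers (16.7%). The length-standardised protein-coding shares were 2.53%, 2.66% and 3.54% in the same order of castes. With equal numbers of peaks, an alternative chosen after seeing the data, the lncRNA shares were 14.9% in drones, 16.3% in queens and 17.5% in workers. H3K27me3 with H3K4me1 alone was found at 10.8%, 12.05% and 7.23% of lncRNA regions in drones, queens and workers, against 1.42%, 1.38% and 1.22% of protein-coding regions. H3K27ac with H3K4me3 went the other way, at 5.42%, 8.43% and 7.98% of lncRNA regions, against 14.8%, 17.2% and 18.5% of protein-coding regions. No mark was called at 37.3% of lncRNA regions in drones, 30.6% in queens and 35.1% in workers, against 50.3%, 48.0% and 49.8% of protein-coding regions. These are counts of regions per caste and were not tested.

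**Figure D4:**
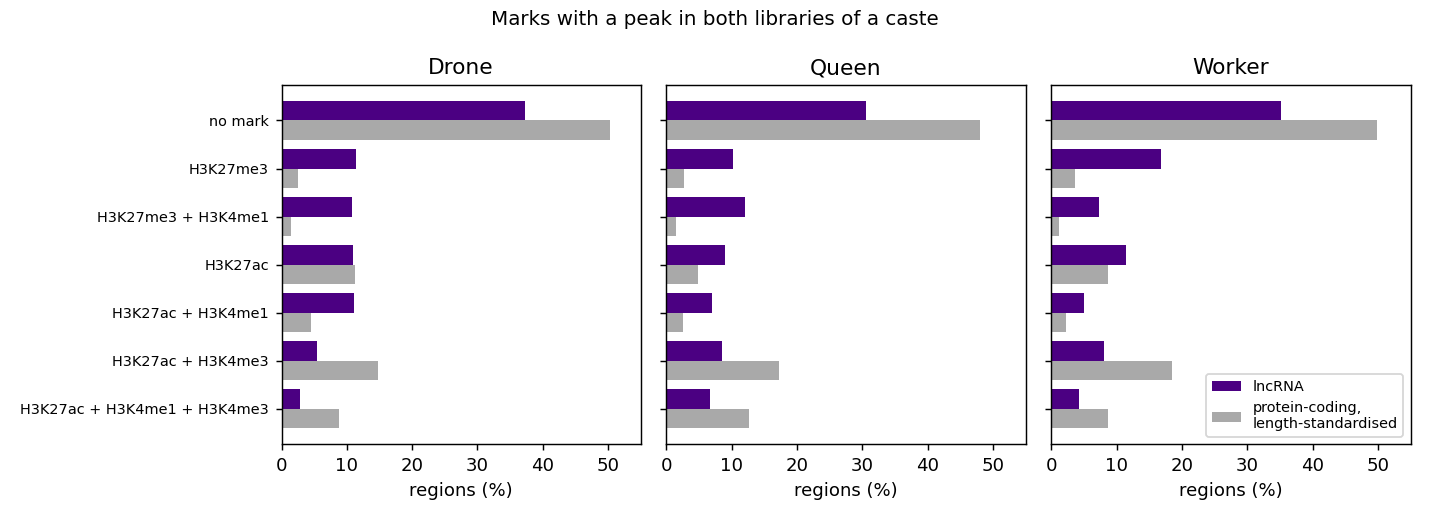
Share of regions (%, x axis) with each of 7 combinations of marks (y axis), a mark being counted where both libraries of a caste held a peak, for lncRNA genes (purple, upper bar) and length-standardised protein-coding genes (grey, lower bar) in drones, queens and workers. The purple bars are longer for H3K27me3 alone (11.4%, 10.2% and 16.7%) and shorter for H3K27ac with H3K4me3 (5.42%, 8.43% and 7.98%).

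The same combination was found in all 3 castes at 309 lncRNA regions (46.5%), against 65.7% of length-standardised protein-coding regions. Of these 309, 173 had no mark, 35 had H3K27me3 alone, 24 H3K27ac alone, 22 H3K27ac with H3K4me3, 17 H3K27me3 with H3K4me1 and 15 H3K27ac with H3K4me1. Both libraries of a caste were also set side by side. Of the lncRNA regions with an H3K4me3 peak in either library of a caste, 64.2% had one in both in drones, 69.8% in queens and 64.5% in workers, against 77.6%, 87.3% and 82.6% of protein-coding regions. For H3K27me3 these shares were 88.1%, 85.8% and 77.7% of lncRNA regions, against 78.7%, 79.8% and 75.5% of protein-coding regions.

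Kakusei, a nuclear non-coding RNA known from worker bee brains as an early response to neural activity, was the only member bearing a known honey bee lncRNA name. It lies on chromosome 2 at 14402911 to 14410012, 5705 bp from the troponin gene TpnI, and holds the microRNA gene Mir6038. Its strongest H3K27ac peak had folds of 11.82 and 10.44 in drones, 6.40 and 6.89 in queens, and 10.71 and 9.03 in workers, and the mark covered 65.9% of the region on average. H3K27ac at Kakusei was thus called in 6 of 6 libraries, and the queen values lay below those of both other castes. H3K4me3 reached 4.29 in 1 drone library, with no peak in the other, 3.01 and 3.59 in queens and 3.76 and 4.42 in workers. H3K4me1 was called in no drone library, at 3.06 and 2.06 in queens and at 3.06 and 3.19 in workers. H3K27me3 was called in 1 queen and 1 worker library, at 2.13 and 2.12. Ks-1 and Ancr-1, other known bee lncRNAs, overlap protein-coding genes and were not members.

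Other members held microRNA genes, and their marks were unlike. LOC113219315 on chromosome 16 (4310746 to 4313591), which holds Mir993, had H3K27me3 in all 6 libraries, with folds of 4.02 and 3.91 in drones, 4.47 and 4.30 in queens, and 3.62 and 2.74 in workers, over 60.1% of the region. It had no H3K4me3 peak in any library. LOC100577704 on chromosome 1 (20117573 to 20122631) holds Mir9a, a microRNA that in *Drosophila* limits the number of sensory organ precursors. Its H3K27ac folds were 7.40 and 7.51 in drones, 5.45 and 6.26 in queens, and 3.65 and 3.76 in workers, it carried H3K4me1 and H3K4me3 in all 6 libraries, and no H3K27me3 peak was called. LOC102656787 on chromosome 8, which holds Mir31a, had H3K27ac in both drone libraries at 3.44 and 4.06, in 1 worker library at 1.91 and in no queen library, and these peaks touched only the flank, over 29 to 130 bp, with LOC113218925 475 bp from the gene. LOC113218641 on chromosome 1, with Mir3771, had H3K27ac, H3K4me1 and H3K4me3 in all 6 libraries and H3K27me3 in 5.

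The 5 members with the most H3K27me3 bases were long genes far from protein-coding genes. Ranking by covered bases favours long genes, so their length is not a finding of its own. LOC102655707 on chromosome 16 (3833928 to 3867944) lies 13176 bp from Ubx, a Hox gene of thoracic and abdominal identity. Its H3K27me3 folds were 7.62 and 7.69 in drones, 6.88 and 6.07 in queens, and 5.68 and 4.78 in workers, with 61.0% of the region covered, and it had no H3K27ac or H3K4me3 peak. All drone values there were above all queen values, and those above all worker values. H3K4me1 was also called in all 6 libraries of LOC102655707, over 9109 and 11731 bp in drones, 3389 and 4500 bp in queens, and 802 and 443 bp in workers.

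LOC102656106 on chromosome 10 (9544635 to 9593823) was the most fully covered of the 5 regions with the most H3K27me3 bases, at 85.2%, and H3K27ac was called in the same 49189 bp gene at folds of 3.87 and 3.31 in drones, 3.30 and 3.77 in queens, and 2.11 and 2.52 in workers. H3K27ac covered 17.8% of it. LOC100576868 on chromosome 6 had H3K27me3 over 59863 to 69227 bp per library, 49.5% of the region, and no H3K27ac or H3K4me3. In LOC100578882 on chromosome 1 the covered length differed more, with 69960 and 65461 bp in drones, 45558 and 43930 bp in queens, and 43734 and 27287 bp in workers. LOC100578777 on chromosome 6 was covered over 19726 to 33655 bp, also with the drone libraries at the top. Over all 664 members, 19 regions had at least 50% of their bases under H3K27me3 peaks in all 6 libraries, against 12 for H3K27ac, 1 for H3K4me3 and 0 for H3K4me1. No protein-coding share was set beside these counts, so they describe the members alone.

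The widest H3K27ac lay in LOC102656338 on chromosome 9 (11106754 to 11188053), where 15357 to 28802 bp were covered. Its folds were 12.59 and 11.74 in drones, 10.80 and 12.25 in queens, and 6.90 and 7.57 in workers, so both worker values lay below the other 4. H3K4me3 was called there in queens (3.34 and 2.95) and workers (2.49 and 2.28) and in no drone library. LOC107965076 on chromosome 10 had H3K27ac over 34.6% of its region, and LOC107965406 on chromosome 13 over 61.6%. The longest member, LOC100578102 on chromosome 12 with 314713 bp, had H3K27ac, H3K4me1 and H3K4me3 in all 6 libraries and no H3K27me3 peak, but each mark covered on average at most 2.40% of it.

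The highest H3K4me3 folds belonged to regions beside protein-coding genes. LOC102654578 on chromosome 7 had 35.68 and 25.78 in drones, 35.37 and 31.92 in queens, and 20.97 and 20.12 in workers, and lies 120 bp from LOC412681. No H3K4me3 peak touched the gene span itself in any library. The same held for LOC113219055 on chromosome 10, 91 bp from LOC412607. LOC107965406, 388 bp from LOC725925, had folds of 24.64 and 15.16 in drones, 24.51 and 23.83 in queens, and 12.97 and 12.75 in workers, and here the peak reached into the gene span in 6 of 6 libraries. In LOC102654578 and LOC107965406 the worker values were the lowest.

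Marks of both kinds met in 4 members with a peak in all 24 libraries (0.602%), against 2.12% of protein-coding regions without standardisation. The shortest, LOC113218611 on chromosome 2 (15622641 to 15627894), had H3K27ac over 77.0% of its region and H3K27me3 at folds of 3.55 and 3.57 in drones, 2.83 and 2.76 in queens, and 2.13 and 2.08 in workers. LOC107965599 on chromosome 15 had H3K27me3 at 4.06 and 5.25 in drones, 6.17 and 5.52 in queens, and 6.35 and 5.54 in workers. LOC102654698 and LOC100576283 were the others, and the region of LOC102654698 shares its strongest H3K27ac and H3K4me3 peaks with the neighbouring LOC113218641. In a pool of brains, a region with both marks cannot be told apart from cells with one mark mixed with cells with the other.

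At the other end, 118 members (17.8%) had no peak of any mark in any library, against 29.4% of protein-coding regions without standardisation. They were short, with a median of 1473 bp. The longest of them were LOC113219197 on chromosome 13 with 48626 bp, LOC102656149, which lies within it, and LOC102656417 on chromosome 16 with 12604 bp.

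**Figure D5:**
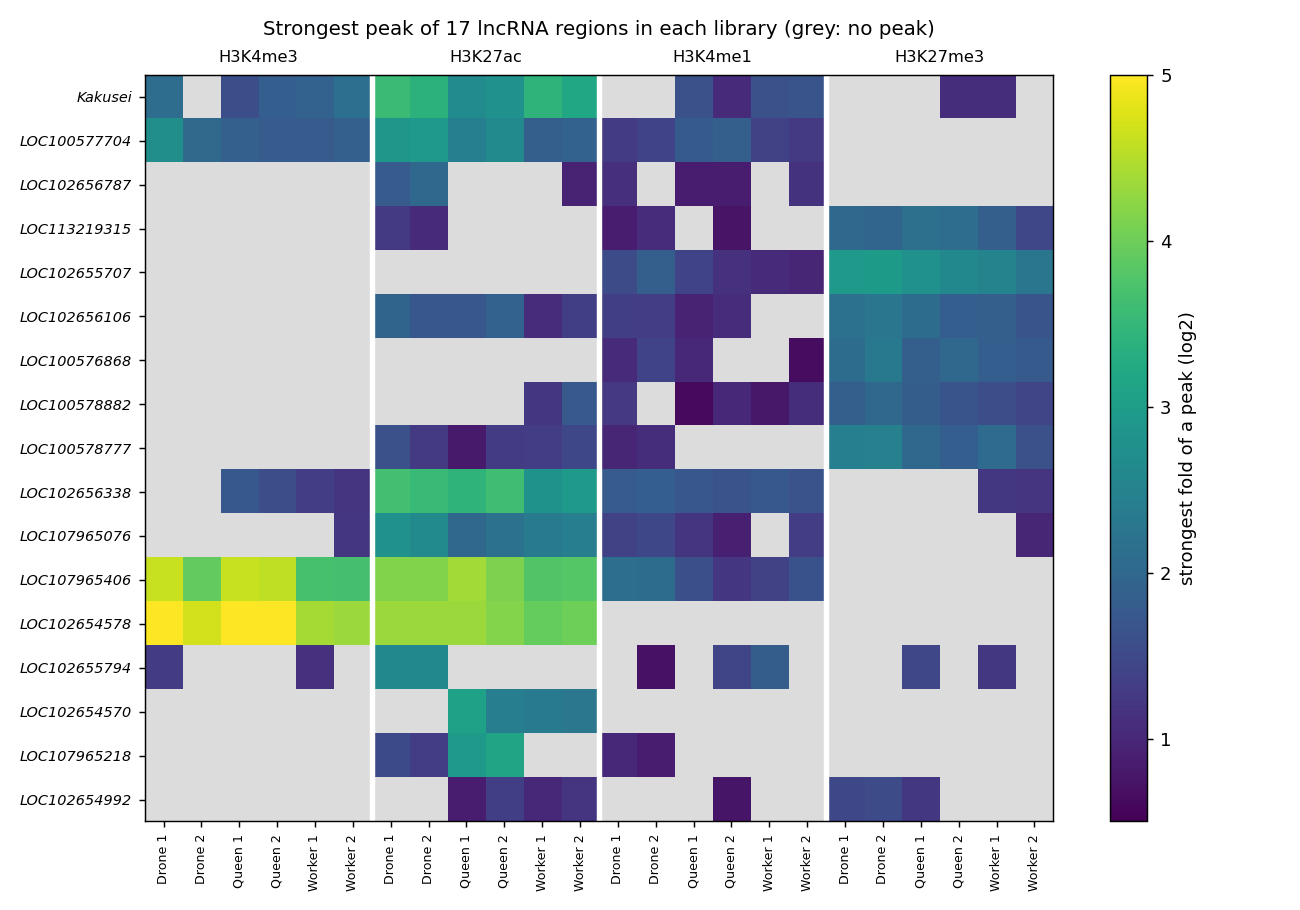
Strongest fold enrichment of a peak (log2, colour) in 17 named lncRNA regions (rows) in each of the 24 libraries (columns, by mark and then drone, queen and worker), with grey where no peak was called and values above 5 drawn as 5. Kakusei has H3K27ac in all 6 libraries, LOC102655707 near Ubx has H3K27me3 in all 6 without H3K27ac, and the lower rows show regions where a mark was called in some castes only.

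Castes were compared over libraries. H3K27me3 was found at fewer lncRNA regions in drones, with 30.9% on average against 36.6% in females, a difference of −5.76 points, and both drone libraries lay below all 4 female ones. With 2 drone and 4 female libraries the smallest possible p of the exact permutation test is 0.0667, which this difference reached (0.133 after adjustment over 4 marks), so no threshold of 0.05 could be passed. With equal numbers of peaks the difference was −5.57 points, and with peaks above 3-fold it was −1.96 points. The share of lncRNA bases under H3K27me3 peaks did not separate drones from females. It was 11.85% and 11.27% in drones, 11.49% and 11.42% in queens, and 12.02% and 11.71% in workers. In protein-coding genes, without standardisation, the difference in marked regions was −2.37 points, on a lower mean share of 13.01% over 6 libraries. Relative differences were not compared between the classes. H3K4me3 was also lower in drones, by −10.96 points, but by −0.941 points with equal numbers of peaks. The drone H3K4me3 libraries had the fewest peaks and the fewest estimated tags, though not the fewest mapped reads in the paper. Drone minus female was −1.39 points for H3K27ac, with 2.48 points for peaks above 3-fold, and 1.05 points for H3K4me1, where the sign turned with equal peak numbers (−2.22) and without the second drone library (−0.678).

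Queen minus worker, the share of marked lncRNA regions differed by 11.4 points in H3K4me1, 4.59 in H3K27ac, 2.79 in H3K4me3 and −2.48 in H3K27me3. The smallest exact permutation p for 2 against 2 libraries is 0.333. In H3K4me1 both queen libraries (46.8% and 45.5%) were above both worker libraries (32.7% and 36.7%), yet with equal numbers of peaks the difference was 1.28 points. In H3K4me3 it was 0.678 points with equal numbers, and in H3K27me3 the sign turned with peaks above 3-fold (0.301). The queen H3K4me1 libraries held 23717 and 21062 peaks, and the worker ones 12475 and 14070.

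Single regions were counted as differing between castes when both libraries of one held a peak and neither library of the other did, and the protein-coding percentages of these counts are not standardised for length. H3K27me3 was called in queens and not drones at 25 lncRNA regions (3.77%), against 1.49% of protein-coding regions, and in workers and not drones at 25 (3.77%), against 2.26%. The converse counts were 3 for drones and not queens (0.452%, against 0.618%) and 5 for drones and not workers (0.753%, against 0.628%). Between the female castes, 8 regions were called in queens and not workers (1.20%, against 0.567%) and 15 in workers and not queens (2.26%, against 0.861%). With equal numbers of peaks the drone counts were 5 (0.753%, against 0.659%) and 6 (0.904%, against 0.608%). Those without drone were then 26 in queens (3.92%, against 1.48%) and 26 in workers (3.92%, against 2.28%).

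For H3K27ac the counts were 14 in drones and not queens (2.11%, against 1.52% of protein-coding regions), 19 in drones and not workers (2.86%, against 1.96%), 22 in queens and not drones (3.31%, against 1.81%), 22 in queens and not workers (3.31%, against 1.5%), 15 in workers and not drones (2.26%, against 1.78%) and 4 in workers and not queens (0.602%, against 0.963%). H3K4me1 gave 29 in drones and not queens (4.37%, against 1.68%), 55 in drones and not workers (8.28%, against 3.27%), 49 in queens and not drones (7.38%, against 4.6%), 51 in queens and not workers (7.68%, against 3.58%), 29 in workers and not drones (4.37%, against 2.13%) and 4 in workers and not queens (0.602%, against 0.385%). H3K4me3 gave 1 in drones and not queens (0.151%, against 0.284%), 2 in drones and not workers (0.301%, against 0.537%), 42 in queens and not drones (6.33%, against 5.91%), 19 in queens and not workers (2.86%, against 2.66%), 31 in workers and not drones (4.67%, against 3.17%) and 7 in workers and not queens (1.05%, against 0.436%). The H3K4me3 counts followed the number of peaks: with equal numbers, 8 were in queens and not drones and 5 in drones and not queens. With equal numbers of peaks the H3K4me1 counts were 24 in queens and not workers (3.61%, against 1.88%) and 13 in workers and not queens (1.96%, against 1.23%). Between queens and drones they were 49 in queens and not drones (7.38%, against 3.78%) and 36 in drones and not queens (5.42%, against 1.96%). Between workers and drones they were 48 in workers and not drones (7.23%, against 3.16%) and 38 in drones and not workers (5.72%, against 2.14%). The H3K27ac count in queens and not workers was then 14 (2.11%, against 1.44%).

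In H3K27ac, the highest drone-limited folds were found at LOC102655794. This region on chromosome 8 (3228454 to 3234645) had folds of 6.09 and 6.05 in drones and no peak in the 4 female libraries. LOC102654570 on chromosome 10 (11995556 to 12000413) was the reverse, with no drone peak, 8.40 and 5.35 in queens, and 5.07 and 4.89 in workers, and no other mark was called there. LOC107965218 on chromosome 11 had 2.85 and 2.49 in drones, 7.67 and 8.71 in queens and no peak in workers. The regions called in workers and not in queens were LOC100578882, LOC107966045, LOC100577162 and LOC113218997, and LOC100577162 had folds of 2.70 and 2.84 in workers.

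In H3K27me3, the 3 regions called in drones and not queens were LOC100577074, LOC102655177 and LOC113218770, and the last had folds of 3.35 and 3.71 in drones, in the flank alone. The 5 called in drones and not workers were LOC102656191, LOC102655177, LOC113219035, LOC113219061 and LOC102654992. LOC102656859 on chromosome 11 (14237793 to 14243265) had no H3K27me3 peak in drones, 3.72 and 4.95 in queens, and 5.23 and 6.12 in workers, while its H3K27ac was called in all castes, at 12.37 and 12.44 in drones, 10.30 and 12.77 in queens, and 6.31 and 6.38 in workers. LOC102655033 had H3K27me3 in queens alone, at 3.15 and 3.46, over 202 and 232 bp. H3K4me1 was likewise called there in queens alone, at 3.13 and 3.19, and H3K4me3 in 1 queen library at 2.19. LOC100577185 on chromosome 3, a gene of 171611 bp, had no drone peak of any mark. Its H3K4me1 folds were 6.60 and 6.67 in queens and 4.36 and 5.64 in workers, over no more than 2183 bp. Its H3K4me3 folds were 8.46 and 6.87 in queens and 3.07 and 4.33 in workers. H3K27me3 was called at 4.28 and 5.23 in queens and 3.80 in 1 worker library, over 197 to 204 bp.

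An exchange of H3K27ac for H3K27me3 between castes was rare in both classes of region. Of 664 regions, 1 had H3K27ac without H3K27me3 in drones and the converse in queens (LOC100576277), and 3 the converse in workers (LOC102653939, LOC102653931 and LOC100576513). Regions with H3K27ac in queens and H3K27me3 in drones were LOC100577646, LOC102654992 and LOC102654248, and with H3K27ac in workers and H3K27me3 in drones LOC102656022 and LOC102654992. Between the female castes, LOC100576513 had H3K27ac in queens and H3K27me3 in workers, and LOC100576277 H3K27ac in workers and H3K27me3 in queens. LOC102654992 on chromosome 12 (10983869 to 10988918) had H3K27me3 folds of 2.78 and 2.89 in drones, 2.34 in 1 queen library and no worker peak, and H3K27ac in no drone library, at 1.82 and 2.51 in queens and 2.01 and 2.27 in workers. LOC100576513, also on chromosome 12, had H3K27ac at 2.13 and 2.00 in drones, 1.72 and 2.59 in queens and not in workers, where H3K27me3 was called at 3.83 and 4.13. Its H3K27ac peaks touched only the flank, over 105 to 198 bp, whereas H3K27me3 reached the gene span in both worker libraries. The corresponding protein-coding counts were between 3 and 17 of 9870. As a share of regions, the lncRNA count was the higher one in every direction except H3K27ac in queens and H3K27me3 in workers. There 1 of 664 stood against 15 of 9870, which are nearly the same share. These shares were not standardised for length or for how frequent the marks are, and were not tested. H3K27me3, which an exchange requires, was found at 34.7% of lncRNA regions and 13.01% of unstandardised protein-coding regions on average. The folds in these regions are low, and the names in this paragraph other than LOC102654992, LOC100576513 and LOC102653939 were chosen after their values were seen, as were all members listed here because a count was 5 or fewer.

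In H3K4me1, the regions called in workers and not in queens were LOC107964028, LOC102654584, LOC100578967 and LOC102655900, of which LOC102654584 had folds of 3.36 and 3.26 in workers and no other mark. LOC102653628 on chromosome 4 had H3K4me1 at 3.41 and 3.34 in drones, no queen peak and 3.26 in 1 worker library, beside H3K27ac at 21.37 and 16.96 in drones, 19.33 and 17.96 in queens, and 12.72 and 12.89 in workers. In H3K4me3, LOC107964495 was called in drones and not in queens (5.35 and 3.70 in drones, with 2.26 and 2.16 in workers), with every peak of the mark in the flank alone and LOC412968 196 bp away, and LOC102654200 and LOC102656753 in drones and not in workers. LOC102655025 on chromosome 16 had H3K4me3 at 3.23 and 3.51 in workers and in no other library. LOC102653939 had the highest caste-limited H3K4me3, at 14.98 and 12.58 in queens alone, but the peaks covered 3 and 20 bp of its region, at the side of LOC410809, which lies 1 bp away.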

How the data were processed

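ChIP-seq was performed on pools of central brains of drones, queens and workers with antibodies to H3K4me3 (Active Motif), H3K4me1 (Abcam), H3K27ac (Active Motif) and H3K27me3 (Millipore). Per the paper's methods and the submitters' processing notes, the authors demultiplexed with bcl2fastq 2.17, aligned with BWA 0.7.17 to Amel_HAv3.1 and called narrow peaks per library with MACS2. The control given to the caller is not given in the sources used here. The deposited files are peak lists: positions, fold enrichment as a ratio of pileup to local background at the summit, and p-values and q-values as −log10. The lowest deposited −log10 q-value was 2.00 to 2.02 per library. Narrow calling divides broad H3K27me3 domains into many peaks, so numbers of peaks were not compared between marks. The files hold no reads, so depth was estimated from fold and p-value (a pileup within 0.02 of a whole number in 99.96% to 100% of peaks), and with the lowest background it gave 4.20 to 25.1 M tags.

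Genes came from the RefSeq gene table of Amel_HAv3.1, whose chromosome ends were checked against the peaks. It holds no sequence, strand or exons, so no sequence is shown. Regions were gene spans with 500 bp on each side, and 1 shared base counted as overlap. Per library, the share of regions with a peak and the share of bases covered were computed in Python 3.11.15 with numpy 2.4.6, pandas 2.3.3 and scipy 1.17.1, and figures were drawn with matplotlib 3.10.9. Protein-coding shares were weighted to the lncRNA length classes with edges at 2, 5, 10, 20 and 50 kb. Libraries were the units of all tests: exact two-sided sign-flip permutation over 6 libraries within a mark, and exact permutation of library labels between castes, with Benjamini-Hochberg adjustment over 4 marks. No test was run over regions. The functions were tested on simulated regions with known overlaps and a known difference.

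Named members followed a rule: known bee lncRNAs and microRNA hosts, up to 5 members per mark with the most covered bases (for H3K4me3 the highest fold) among those marked in all 6 libraries, the member with the highest fold for each mark and ordered pair of castes, the 3 longest members, the shortest marked in all 24 libraries, and the 3 longest with no peak. Members, lists and tests were chosen with earlier results of these data known. Alternatives were no flanks, −log10 q of at least 5, fold above 3, equal numbers of peaks per library (H3K27ac 21386, H3K27me3 21705, H3K4me1 12331, H3K4me3 3727, by p-value), peak summits, members near protein-coding genes left out, no length standardisation, the replicate block and leaving out each library. Peaks on sequences other than the 16 chromosomes were left out.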

Additional observations from a re-analysis of the deposited data

How the results depend on the processing

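Differences are in percentage points. The lncRNA minus protein-coding differences kept their sign under every alternative run, as did near minus far except for H3K4me1 without length standardisation (−3.72, chosen after seeing the data). The protein-coding differences left the threshold for H3K27ac without flanks (−3.67) and for H3K4me1 above 3-fold (1.60). Coverage minus intergenic DNA left it for H3K4me3 without flanks (0.193) and without members near protein-coding genes (0.201), and for H3K27me3 with −log10 q of at least 5 (0.185) and equal numbers of peaks (0.319), and turned negative for H3K27me3 above 3-fold (−0.100). Drone minus female changed sign in H3K4me1 with −log10 q of at least 5 (−0.678), above 3-fold (−2.52), with equal numbers (−2.22), without near members (−0.0539) and without the second drone library (−0.678), and in H3K27ac above 3-fold (2.48). Queen minus worker H3K27me3 was 0.301 above 3-fold. The summed caste-limited H3K4me3 count was 37 with equal numbers, against 102. The causes were not tested.

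With 5 libraries the smallest p is 0.0625, so leaving out a library ends every call by construction. The values then ran, for lncRNA minus protein-coding, from −5.66 to −4.35 (H3K27ac), 24.5 to 25.6 (H3K27me3), 15.997 to 17.6 (H3K4me1) and −15.9 to −14.6 (H3K4me3). For coverage they ran from 2.38 to 2.63, 0.291 to 0.396, 0.704 to 0.769 and 0.520 to 0.650 in that order of marks, and for near minus far from 37.7 to 38.5, −21.6 to −21.0, 3.94 to 4.57 and 25.5 to 28.2. Drone minus female ran from −2.07 to −0.715, −6.55 to −4.97, −0.678 to 2.79 and −13.4 to −8.55, and queen minus worker from 3.24 to 5.95, −4.07 to −0.904, 9.41 to 13.5 and 0.151 to 5.42.

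Combinations had alternatives that were chosen after seeing the data. H3K27me3 alone was found at 14.9% of lncRNA regions in drones and 16.3% in queens with equal numbers, and at 13.6% in queens with −log10 q of at least 5. No mark was called at 34.5% in queens with equal numbers, and at 42.8% in drones and 38.9% in workers with −log10 q of at least 5.

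Replicate numbers of different castes did not deviate together (correlations of −0.0998 to 0.0827). The replicate block left the caste differences as they were and gave drone minus female p = 0.111 for H3K27me3 (−5.76) and H3K4me3 (−10.96), the smallest the blocked exact permutation allows. Differences within a library have no block, because each library is its own pair. An uncalled peak at an estimated 4.20 M tags does not show absence.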

Other observations

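Of the 174 regions with H3K27me3 in all 6 libraries, 85 (48.9%) stood alone and 89 lay in 32 rows when neighbours in this class were joined across gaps of up to 20000 bp. Among all 664 members joined in the same way, 362 (54.5%) stood alone. For the other marks in all 6 libraries, 147 of 208 regions (70.7%) stood alone for H3K27ac and 81 of 110 (73.6%) for H3K4me1. For H3K4me3 it was 57 of 63 (90.5%). The sets differ in size, and members of a sparser set stand alone more often. The longest row with the mark held 7 members on chromosome 6 (16371003 to 16428834), with LOC413512 and LOC724861 among its nearest protein-coding genes. A row of 6 members lay on chromosome 11 (14187574 to 14229944), and rows of 5 on chromosome 7 (13303060 to 13358293) and at other places on chromosome 11 (1806005 to 1835013 and 13380974 to 13409551). Chromosome 6 had 33 of its 79 members (41.8%) in this class, and chromosome 10 had 8 of 51 (15.7%). These positions and counts were described without a test.

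Some members of this class neighbour genes with well known roles, and they were picked out after their values were seen. LOC102655316 and LOC102655509 on chromosome 16 lie 18619 and 26115 bp from Antp, a Hox gene of thoracic identity. H3K27me3 covered 58.4% and 57.9% of their regions, at mean strongest folds of 7.42 and 6.94, and no H3K27ac peak was called in either. LOC102656140 on chromosome 5 lies 10406 bp from Dsx, the switch gene of insect sexual differentiation. It had H3K27me3 in both libraries of each caste, over 23.7% of the region, and H3K27ac in both queen libraries and in no drone or worker library. LOC102654734 on chromosome 13 lies 1565 bp from Eth, which encodes the ecdysis triggering hormone, and had H3K27me3 over 51.0% of its region and no H3K27ac peak.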
